A study of Homo sapiens with 2 samples.

Results

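Peaks of the RNA mark m6A were examined in 6 genes of the SOX family of transcription factors in the human liver cancer line HCCLM3: SOX4, SOX12, SOX9, SOX13, SOX5 and SOX6. A peak was counted for a gene when its summit lay in the RefSeq span of that gene on hg38, whatever gene name the deposited table gave it. By this rule 28 of the 39801 peaks of the table belonged to the 6 genes, and 7 of the 28 carried another gene's name there. The cells were labelled wild type, a genotype that both libraries share, and there was 1 m6A-RIP library, made from RNA captured with an m6A antibody, and 1 m6A-Input library of the uncaptured RNA. With no replicate of either, each value describes this pair of libraries of 1 condition, and differences between genes were not tested.

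SOX proteins bind DNA through an HMG box, a domain that bends the double helix, and they act mostly together with partner factors. They are sorted into groups by sequence: SOX4 and SOX12 belong to the SOXC group of activators, SOX9 to SOXE, and SOX5, SOX6 and SOX13 to SOXD, whose proteins pair with each other through a coiled coil and have no transactivation domain of their own. In liver, SOX9 marks bile duct cells and progenitors and SOX4 acts beside it in the forming ducts, and both are often found raised in liver cancer. m6A is the commonest internal mark of mRNA and lies mostly near stop codons, in 3' UTRs and in long internal exons.

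Of the 6 genes, 5 held at least 1 peak, and the same 5 held one with a q-value under 1e-5; SOX6 held none. Among all 20037 protein-coding genes on the main chromosomes, 49.3% held a peak and 28.5% one with a q-value under 1e-5. Of the 28 peaks, 12 had a q-value under 0.05, against 48.8% of all peaks, and 9 had a q-value under 1e-5, against 25.8% of all peaks. The 6 genes were put together with such results known, so these counts are a description. The fold, p-value and q-value of each peak are the authors' values. The fold is RIP over input at the summit, and the fragments captured there and the input level around it were worked back from fold and p-value. Each range given after a fold is a 95% exact Poisson interval for the captured fragments at a fixed input level. Such a range holds the counting error of the captured fragments alone and leaves out that of the input level. Copies of 1 molecule may also have been counted as separate fragments, since duplicate removal is not described.

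Over the whole table the median peak had a fold of 3.33 on 9 RIP fragments. The label of a liver cancer line was set against peaks of marker genes, which show where m6A was recovered and not how much RNA was present. The hepatocyte regulators HNF4A and FOXA2 held peaks, while ALB, APOA1, TTR, AFP and GPC3 held none. No peak lay in the 4 biliary or the 3 immune markers, and of the 5 endothelial and stromal markers only PECAM1 held any. Among all protein-coding genes 49.3% held a peak, and among those under 6 kb 21.2%. The marker lists are short, and their counts were not tested against these shares. A gene without a peak may carry little m6A or little RNA; the peak list cannot tell these apart, nor fewer cells from less RNA per cell.

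SOX4, a single-exon gene whose protein is a strong activator in progenitor and tumour cells, held 3 peaks, each on over 100 RIP fragments and with a q-value under 1e-5. Its span lies on the plus strand of chromosome 6 from 21593751 to 21598619. Its first peak lay between 21593986 and 21594418, at a fold of 4.05 (3.34 to 4.86) on 112 RIP fragments over an input level of 17. The second lay between 21594699 and 21595281, at a fold of 4.33 (3.57 to 5.20) on 111 fragments over an input level of 15.7. The third, between 21595539 and 21597363, was 1825 bp wide and had the lowest fold of the 3, 3.57 (3.08 to 4.10), on the most fragments, 193, over the highest input level, 34. The 3 intervals overlap one another, so the order of the folds along SOX4 was not resolved. Together the peaks covered 58.3% of the gene span, with summits at 381, 1192 and 2251 bases from its 5′ end.

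SOX12, the other SOXC gene with a peak and likewise a single-exon gene, held 2 peaks of higher fold. Its span is on the plus strand of chromosome 20 from 325552 to 330224. The first, between 325576 and 327364, begins almost at the gene's 5′ end and reached a fold of 7.67 (6.37 to 9.17) on 118 fragments over an input level of 9, with a q-value of 2.49e-38. By −log10 p it ranked 252 of all peaks, the highest rank among the 28. The second, between 327840 and 328842, reached a fold of 6.56 (5.14 to 8.25) on 70 fragments over an input level of 6. The interval of the first SOX12 peak lay above those of all 3 SOX4 peaks, while that of the second overlapped the highest of them, between 5.14 and 5.20. The SOX12 peaks covered 59.7% of the gene span, nearly the same share as in SOX4.

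SOX9, a factor of bile duct and cartilage development, held 2 peaks in its span on the plus strand of chromosome 17 from 72121020 to 72126416. The weaker, between 72121550 and 72122061, had its summit 630 bases from the 5′ end of the gene and a fold of 3.69 (2.07 to 6.24) on 11 fragments, with a q-value of 0.0165. The stronger lay between 72124017 and 72124889, at a fold of 7.69 (5.82 to 9.99) on 53 fragments over an input level of 3.55, with a q-value of 3.99e-19. Its summit lay 3169 bases from the 5′ end and 2227 bases from the 3′ end of the gene. The 2 intervals overlap between 5.82 and 6.24. The SOX9 peaks covered 25.7% of the span, less than in SOX4 and SOX12.

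All 7 peaks of SOX4, SOX12 and SOX9 were labelled promoter in the deposited table, and all 7 lay with their whole width inside the gene. Any position within 3 kb of a transcript start took this label ahead of an exon or UTR label, and these genes are each under 6 kb long. Their labels therefore do not say which part of the transcript held the peak. No transcript models were used here, so positions are given only as distances from the gene's ends. Of the 3770 protein-coding genes under 6 kb, 21.2% held a peak and 12.1% held one with a q-value under 1e-5, and 5 held at least 3 peaks with a q-value under 1e-5, as SOX4 did. At least 2 such peaks, as in SOX12, were found in 63. Such counts depend on where the caller divided the signal into peaks, which was not tested. The 3 close peaks of SOX4 covered 58.3% of its span and the 2 of SOX12 covered 59.7%.

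**Figure D1:**
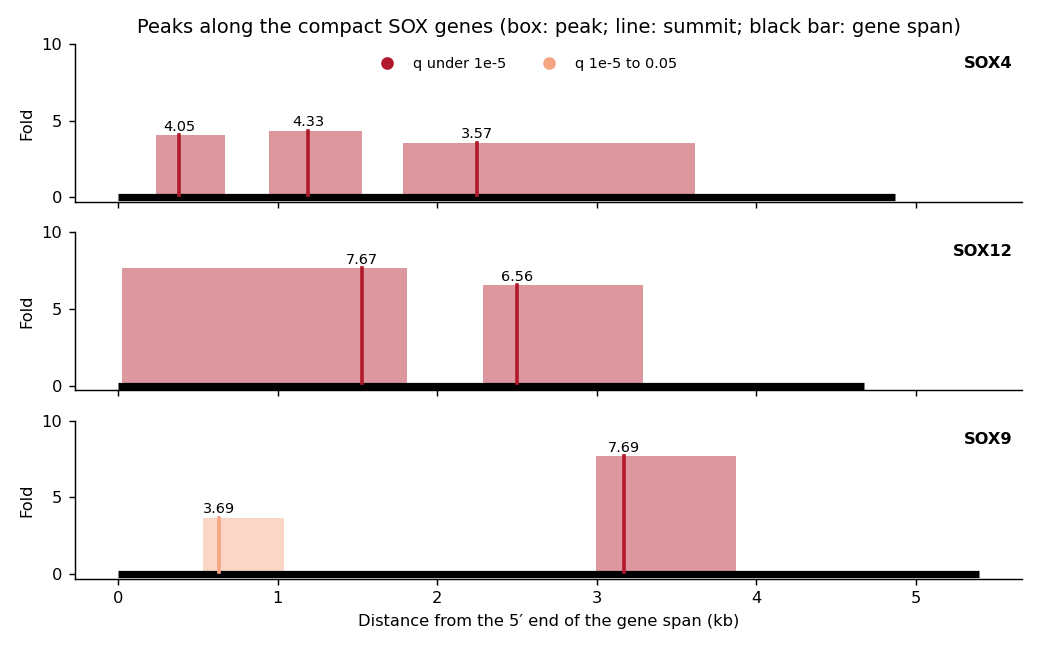
Peaks along SOX4, SOX12 and SOX9, with distance from the 5′ end of the gene span in kb on the x axis and fold over input on a linear y axis; boxes are peaks, lines are summits and colours give the q-value. The 3 SOX4 peaks stand at folds of 3.57 to 4.33, and SOX12 and SOX9 each reach a higher one, 7.67 and 7.69.

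SOX13, a SOXD gene known for its part in T cell and arterial development, held 2 peaks in its span on the plus strand of chromosome 1 from 204073115 to 204127743. The stronger was in the 3' UTR between 204125998 and 204126459, where the fold was 6.66 (5.44 to 8.07) on 101 fragments over an input level of 8.88 and a q-value of 2.40e-29. Its summit lay 1550 bases from the 3′ end of the gene. The deposited table gave this peak to the non-coding gene ERLNC1, the nearest transcript start, although the summit lay in no other annotated gene than SOX13. By its own name SOX13 kept only the weaker peak, in intron 1 of 13 between 204077011 and 204077437, where the fold was 3.25 (1.92 to 5.23) on 14 fragments and a q-value of 0.109.

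SOX5, a SOXD gene that spans 1033147 bases on the minus strand of chromosome 12 from 23529504 to 24562650, held 19 of the 28 peaks. Most of them were weak: 16 had an intron label, 15 had a q-value of 0.05 or above, and those 15 rested on 2 to 7 RIP fragments each. Only 4 peaks had a q-value under 0.05 and 2 under 1e-5. The lowest, the median and the highest fold of the 19 were 1.76, 2.75 and 8.53. SOX5 intron peaks had a median of 4 fragments and a median fold of 2.75, against 6 fragments and a fold of 2.90 for all intron peaks of the table. Of the SOX5 intron peaks, 2 of 16 had a q-value under 0.05 (12.5%, 95% Wilson interval 3.50 to 36.0), against 33.1% of all intron peaks, a share inside that interval.

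The highest fold of any of the 28 peaks was in SOX5, at 8.53 (5.13 to 13.5), in intron 3 of 14 from 23821917 to 23822431. It rested on 15 RIP fragments over an input level of 0.246, which to 3 digits is the lowest level in the table. The first quartile over all peaks was 0.246 too, so many peaks share this floor. The fold and its interval at this peak rest on it. Without the caller's pseudocount of 1 the ratio there would be 39.1. This peak had weak neighbours in the same intron: one from 23823756 to 23824051 of fold 2.75 on 4 fragments, one from 23820111 to 23820475 of fold 2.64 on 5 fragments, and one from 23797664 to 23797966 of fold 2.75 on 7 fragments. The median gap between neighbouring SOX5 summits was 36.8 kb, and the shortest, 1.59 kb, lay within this intron.

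The second SOX5 peak with a q-value under 1e-5 lay between 24210878 and 24211347, at a fold of 7.21 (4.20 to 11.8) on 13 fragments over an input level of 0.296. The deposited table labelled it promoter and gave it to MIR920, a microRNA gene that lies inside SOX5 on the opposite strand. The summit was 1336 bases from the MIR920 hairpin, which occupies 24212421 to 24212495, and no peak overlapped the hairpin. In all, 3 SOX5 peaks were given to MIR920 and 3 to the antisense gene SOX5-AS1, but only 1 of these 6 had its summit inside such a gene, in intron 3 of 4 of SOX5-AS1. The mature microRNA is shown because its name stands in for SOX5 in these peaks; it is from RefSeq on GRCh38.p14, chr12:24212471-24212490, plus strand, with the seed (bases 2 to 8) in capitals.
hsa-miR-920: gGGGAGCUguggaagcagua
The peak table has no strand, so SOX5 transcripts and those of the other strand could not be told apart here.

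The 2 remaining SOX5 peaks with a q-value under 0.05 had more fragments and lower folds. In the 3' UTR, from 23533828 to 23534372, the fold was 4.61 (2.95 to 6.94) on 20 fragments over an input level of 2, with a q-value of 0.000168. Its summit lay 4655 bases from the 3′ end of the gene. In intron 5 of 16, from 24017842 to 24018181, the fold was 3.54 (2.38 to 5.09) on 26 fragments over an input level of 4. The peak from 23949580 to 23949984, which spans an internal SOX5 transcript start in the deposited table, had a fold of 3.25 (1.58 to 6.55) on 5 fragments and a q-value of 0.0957. The other 14 SOX5 peaks had folds of 1.76 to 3.25.

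SOX6, the third SOXD gene and a repressor of fetal globin genes in red cell precursors, spans 772029 bases on the minus strand of chromosome 11 from 15966449 to 16738477 and held no peak. The nearest peak upstream was 40.2 kb away in the 3' UTR of C11orf58, with a fold of 2.35 on 3 fragments and a q-value of 1. The nearest downstream was 1075 kb away, at CYP2R1, with a fold of 4.18 (2.61 to 6.42) on 18 fragments. The peaks on either side carry consecutive numbers in the authors' list, so no numbered peak is missing between them. An empty span is common among long genes: of 315 protein-coding genes of at least 500 kb, 60.3% held a peak, so 125 held none. In the same set 41 held at least 19 peaks, as SOX5 did, and the median was 1 (quartiles 0 to 9).

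**Figure D2:**
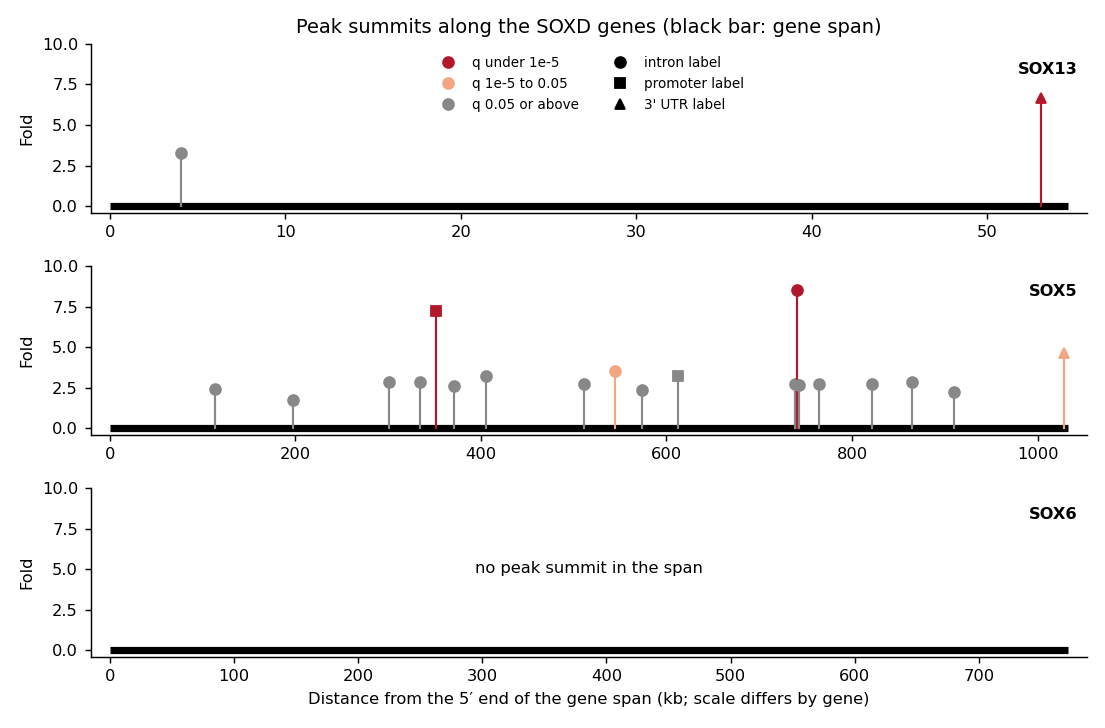
Peak summits along SOX13, SOX5 and SOX6, with distance from the 5′ end of the gene span in kb on the x axis (a different scale for each gene) and fold over input on a linear y axis; colours give the q-value and shapes the deposited region label. SOX13 has its strong peak 1550 bases from the 3′ end, SOX5 has 19 summits scattered along the span, of which 2 have a q-value under 1e-5, and SOX6 has none.

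By their highest-fold peak the 5 genes were ordered SOX5 (8.53), SOX9 (7.69), SOX12 (7.67), SOX13 (6.66) and SOX4 (4.33). The intervals of SOX5, SOX9, SOX12 and SOX13 overlap one another, so their order was not resolved at this depth. The interval of SOX4 ended at 5.20, below the lower bound of SOX13 at 5.44, while it overlapped that of SOX5, which began at 5.13. The median of these 5 folds was 7.67, against 4.73 (quartiles 3.38 to 6.64) for the highest fold of each of the 9881 protein-coding genes with a peak. SOX4 stood at percentile 42.7 of those genes, SOX13 at 75.2, SOX12 at 83.8, SOX9 at 83.9 and SOX5 at 88.7. The number of peaks per gene differed, and a gene with more peaks has more chances of a high one. The place of SOX5 also rests on the lowest input level of all peaks to 3 digits, 0.246, a floor shared by many.

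**Figure D3:**
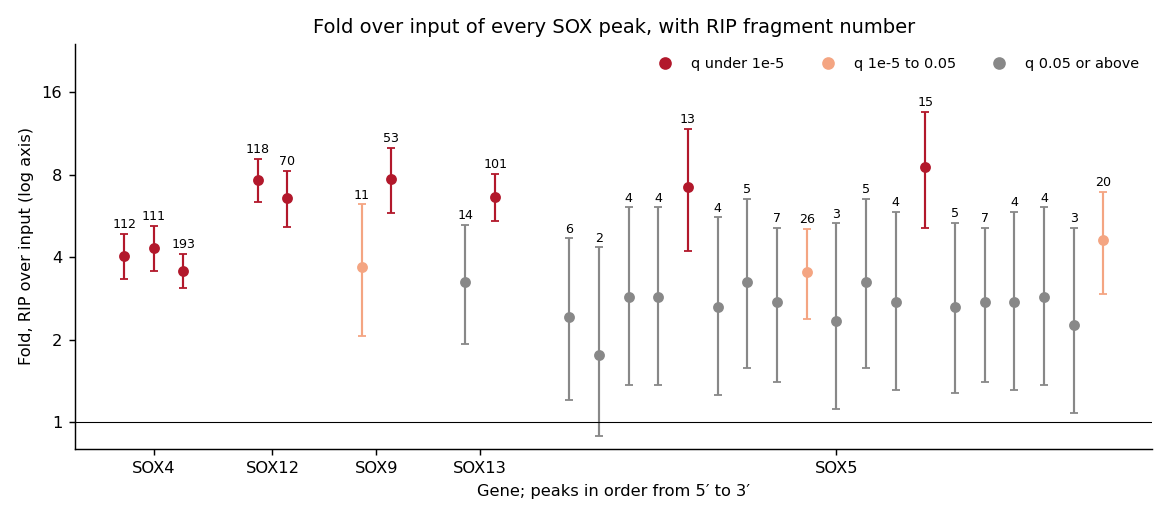
Fold over input of each of the 28 peaks on a log axis, by gene and in 5′ to 3′ order within it; points are deposited folds, bars are 95% Poisson intervals, numbers are RIP fragments and colours give the q-value. The 9 peaks outside SOX5 rest on 11 to 193 fragments, and the 19 of SOX5 on 2 to 26.

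The 28 peaks differed widely in depth. The 9 peaks outside SOX5 rested on 11 to 193 RIP fragments with a median of 101, whereas the 19 SOX5 peaks rested on 2 to 26 with a median of 5. The input level at the summit had a median of 8.88 outside SOX5 and of 0.296 in SOX5. It was highest in SOX4, at 15.7 to 34, then in SOX12 and in the 3' UTR of SOX13. The SOX4 peaks stood higher by p-value than by fold: along the gene they ranked 2222, 1808 and 865 by −log10 p but 13073, 11522 and 17226 by fold. The intron share shows the same split, with 17 of the 28 peaks (60.7%, 95% Wilson interval 42.4 to 76.4) labelled intron, against 37.9% of all peaks. With SOX5 left out, 1 of 9 was (11.1%), so the share of the set rests on that gene. The interval treats peaks as independent and does not reflect this. Promoter labels were given to 9 of the 28, against 14.0% of all peaks, and 3' UTR labels to 2, against 14.4%.

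**Figure D4:**
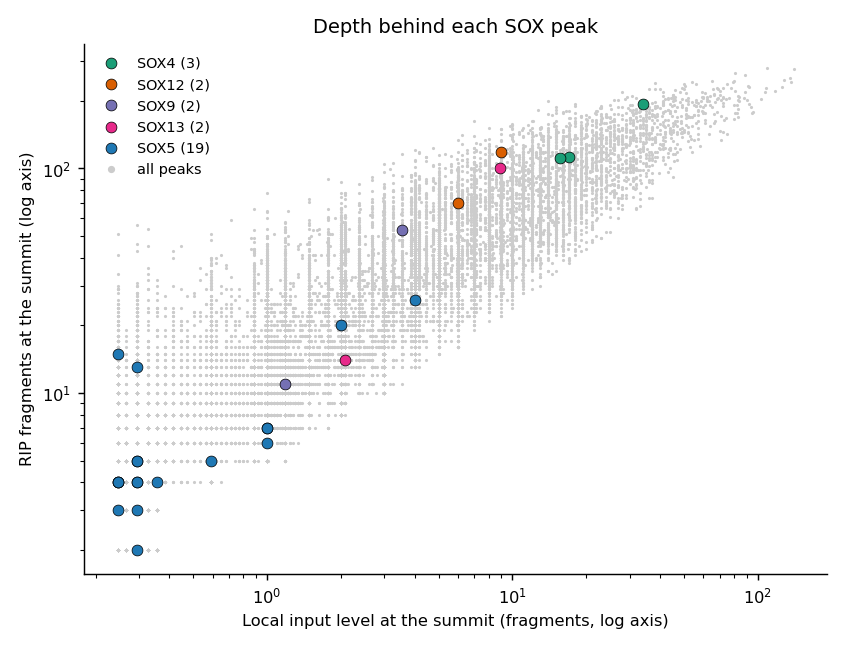
RIP fragments at the summit (y axis, log) against the local input level at the summit (x axis, log, in fragments), with all peaks of the table in grey and the 28 SOX peaks coloured by gene. SOX4 peaks lie at input levels of 15.7 to 34, and most SOX5 peaks at levels under 1; the stripes in the grey points come from whole fragment numbers.

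The surroundings of the genes differed as well. The SOX4 peaks stood alone, the next one upstream 492.5 kb away and the next one downstream 595.7 kb away, the second in the last exon of CASC15, a long non-coding RNA gene beside SOX4 (fold 4.03, 2.26 to 6.81). SOX9 stood apart likewise, 1573 kb and 242.3 kb from its neighbours, and its antisense gene SOX9-AS1 held no peak. SOX12 had close neighbours on both sides. A peak in the last exon of NRSN2-AS1 lay 5.06 kb upstream with a fold of 10.2 (7.54 to 13.5). An intergenic peak from 336013 to 336410, 6.02 kb beyond the 3′ end, had a fold of 7.09 (5.35 to 9.23) on 52 fragments and was given to SOX12 by the deposited table. Its summit lay in no annotated gene, and it is not among the 28.

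Of the 13 other SOX genes, 2 held a peak by the same rule, against 49.3% of protein-coding genes. Both are among the 9 of these 13 that are under 6 kb long, a length at which 21.2% of protein-coding genes held one. SOX2, a SOXB1 factor of pluripotent and neural cells, held 1 peak on chromosome 3 between 181712023 and 181713981. Its fold was 9.31 (7.93 to 10.9) on 158 fragments over an input level of 10. It ranked 17 of all peaks by −log10 p, ahead of the 28, and its summit also lies in the overlapping gene SOX2-OT. SOX18, a SOXF factor of vessel development, held 1 peak of fold 2.70 (2.12 to 3.40) on 70 fragments. The rest, among them SOX11 of the SOXC group, held none. The SOX genes examined first were put together with such results known, so the count among the others is a description too. The deposited table named SOX7, SOX14 and SOX15 for 4 peaks whose summits lay outside those genes. One of them, of fold 10.7 (8.57 to 13.3), had its summit in PINX1 and SOX7-AS1.

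The TCF and LEF genes encode HMG-box factors of the Wnt pathway. TCF7L2 held 4 peaks with a highest fold of 7.39 (5.19 to 10.2), TCF7 held 2 with a highest fold of 5.17 (4.11 to 6.42), TCF7L1 held 1 on 2 fragments, and LEF1 held none.

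**Figure D5:**
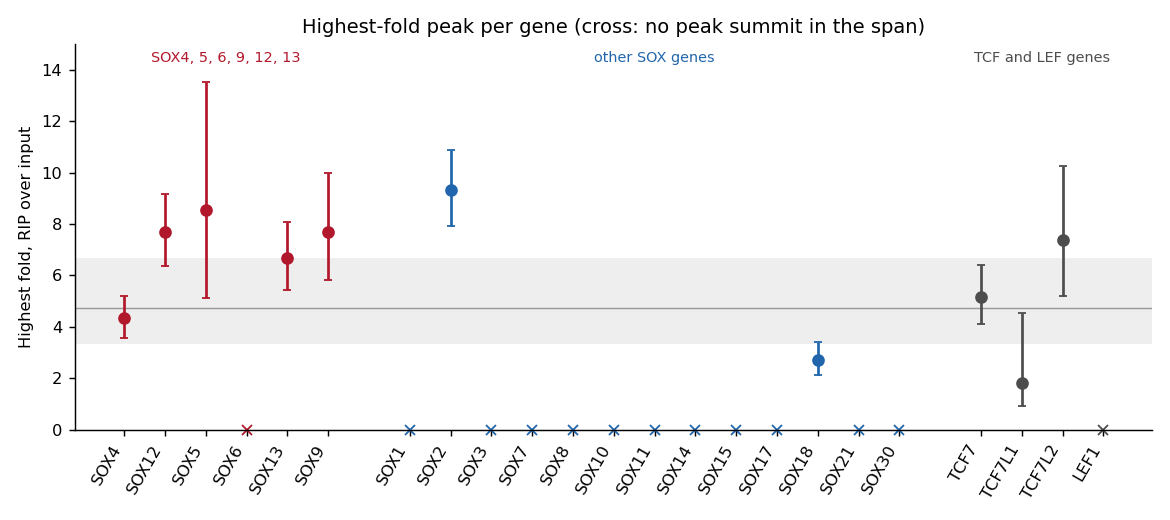
Highest fold over input per gene on a linear axis for the 6 SOX genes examined, the 13 other SOX genes and 4 TCF and LEF genes; bars are 95% Poisson intervals, crosses are genes with no peak, and the grey line and band are the median, 4.73, and quartiles, 3.38 to 6.64, over protein-coding genes with a peak. Of the 6 genes 5 have a peak, and of the 13 other SOX genes 2. The 6 genes were put together with such results known, so this difference is a description.

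Peaks were also counted in a list of genes that act with SOX factors in liver and progenitor cells. Of 20 partners and regulators, 18 held one, against 49.3% of protein-coding genes, and 16 held one with a q-value under 1e-5, against 28.5%. MAML2, a Notch coactivator, had the highest fold, 18.8 (14.7 to 23.6), followed by the hepatobiliary factor ONECUT2 at 9.97 (7.14 to 13.6), the Notch coactivator MAML1 at 8.0 (6.28 to 10.1) and the Notch effector RBPJ at 7.95 (5.93 to 10.5). The Hedgehog effector GLI3 held none. Of 17 genes reported downstream of SOX4 or SOX9 or lying beside them, 5 held a peak, against 49.3% of protein-coding genes. Of these 17, 2 held one with a q-value under 1e-5, against 28.5%. The list includes non-coding genes, which those shares leave out. The highest folds were in SEMA3C, a semaphorin gene, at 11.6 (9.71 to 13.8), and in BMI1, a Polycomb gene, at 4.58 (3.64 to 5.70). The bile duct genes KRT19, KRT7 and SPP1 held none. These lists were chosen with earlier results of these data known, so their counts are a description. They were not matched on RNA level or gene length.

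Genes were also ranked by likeness to each SOX gene: the same number of peaks with a q-value under 0.05, the same region label of the highest-fold peak, and the smallest distance over log2 fold and log2 of the input level plus 1 at that peak. SOX4 was nearest to MAP3K11 (distance 0.0378) and ATF5 (0.0954) among 174 genes. SOX12 was nearest to THRAP3 (0.0491) and CEBPZ (0.110), and SOX9 to C14orf119 (0.106) and C21orf58 (0.120), each among 380 genes. SOX13 was nearest to GPR153 (0.0177) and SPC24 (0.0669) among 1557, and SOX5 to ERP44 (0.0632) and DPYD (0.0802) among 147. The ranking rests on 1 peak per gene from 1 pair of libraries.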

How the data were processed

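RNA of wild-type HCCLM3 cells gave 1 m6A-RIP and 1 m6A-Input library. The submitters' processing notes name HISAT2 for alignment, MACS2 for peak calling and the build hg38. For versions, caller settings and duplicate removal, the sources used here say nothing. A single annotated peak table was deposited; per the file headers it holds a fold enrichment, a linear ratio of RIP over input made by the authors. The authors' −log10 p-value and −log10 q-value columns have damaged headers; they were identified from the deposited score, which was 10 times the first, rounded down, for 99.99% of peaks. This score was used for nothing else. Of 39824 peak numbers, 39801 were used here.

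Gene spans came from RefSeq on GRCh38.p14, which shares its main chromosomes with hg38. RIP fragments k and input level were solved from fold = (0.642 k + 1) / (level + 1) and a Poisson tail, which 100% of peaks met to within 0.001 in −log10 p, 98.2% with 1 solution. The factor makes the RIP library 1.56 times the input; total depth is not stated. On 1945 simulated peaks this recovery, tested with another scale factor, returned the true fragment number for 99.7%. These peaks were made with the same formula, so they test the solving and not the formula itself. None had as few as 2 fragments, the lowest number among the real peaks. No test between genes was made. Python 3.11.15, scipy 1.17.1 and statsmodels 0.14.6 were used.

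All peaks in the 6 genes were reported. Peaks with a q-value under 0.05, or the highest fold of a gene, were described singly. Up to 4 genes with and 4 without a peak were named per list of related genes, and TCF7L1 after its value was seen; markers of the cell type were not held to this limit. Some genes of the lists are not reported here by name. The members and lists were chosen with earlier results of these data known. Sequence under the peaks was not used here.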

Additional observations from a re-analysis of the deposited data

How the results depend on the processing

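No replicate could be left out, since each group is 1 library. No paired analysis was possible because each group holds 1 library and no test was made. Of 102 values under other settings, 82 stayed within 1.5 times (counts) or within the main interval (folds and shares) and 20 moved. The 5 genes with a peak stayed 5 in every setting tried, and SOX6 stayed at 0. Settings that only drop peaks could not have changed the 0 of SOX6, and its values are among the 82. The 19 SOX5 peaks came to 4 at a q-value under 0.05, 2 at a q-value under 1e-5, 3 at a fold of at least 4, 4 with at least 10 RIP fragments and 3 without intron labels. The 2 SOX13 peaks came to 1 at each q-value threshold, at a fold of at least 4, without intron labels and by the deposited assignment, and the 2 SOX9 peaks came to 1 with the stricter q-value, 1e-5, and with the fold limit of 4. The highest fold of SOX13 was 3.25 by the deposited assignment, which gives its 3' UTR peak to ERLNC1. For SOX4 the peak of highest −log10 p had a fold of 3.57 in place of 4.33, and without the pseudocount SOX5 reached 39.1. The intron share of 60.7% was 16.7% at a q-value under 0.05, 11.1% at a q-value under 1e-5 or a fold of at least 4, 23.1% with at least 10 fragments, and 11.1% without SOX5, a setting chosen after seeing the data. Depth is low in SOX5, where 15 of 19 peaks rest on at most 7 fragments.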
